A study of Mus musculus with 2 samples.

Results

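The genes described here encode the translation initiation factors eIF1 to eIF6 and the elongation factors eEF1 and eEF2 of the cytosol, with their kinases and binding partners. They were taken by symbol, as every listed gene whose name starts with Eif1 to Eif6, Eef1 or Eef2. Of 24346 listed genes, 64 matched and 61 were kept. The 3 that the rule set aside encode 1 kinase of eIF2 and the X- and Y-linked forms of a subunit of eIF2. RNA sequencing had been done on mouse heart tissue, kept in an RNA preservative and frozen, from a model labelled HFD-MI, read here from the study's title and design text as high-fat diet and myocardial infarction. There were 2 libraries, 1 from heart tissue treated with probucol, a cholesterol-lowering antioxidant, and 1 from untreated heart tissue, both with the age label day 14. The labels give neither the genotype, the part of the heart, the number of animals per library nor the event from which days were counted, and the headers of both deposited columns carry the marks HypoE and CM, which the labels do not explain.

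Translation starts when eIF2, bound to GTP and the initiator tRNA, joins the small ribosomal subunit together with eIF1, eIF1A, eIF3 and eIF5. The eIF4F complex, made of the cap-binding protein eIF4E, the scaffold eIF4G and the RNA helicase eIF4A, brings the mRNA. Elongation then needs eEF1A, which delivers aminoacyl-tRNA, the eEF1B exchange factor, which reloads eEF1A with GTP, and eEF2, which moves the ribosome along the mRNA. Most of these genes are expressed in every cell. Eef1a2 is the exception best known in this organ: it takes the place of Eef1a1 in mature heart muscle, skeletal muscle and neurons.

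The promoters of the eEF1A and eIF4A paralogs are shown first, since genes with the same biochemical role had opposite differences between the libraries. The sequences are RefSeq's, build GRCm38.p6, written 5′ to 3′ on the gene's strand, and cover the 150 bases before the annotated start of the muscle and the widespread eEF1A gene and of both main eIF4A genes. Capitals mark motifs found on either strand. Searched were the GC box, spelled GGGCGG, and the CCAAT box, whose name is its spelling. The E-box, a site for helix-loop-helix factors, was searched as CANNTG. The TATA-like motif was taken as TATANAA, with any base at the N. The interferon-response-like motif was the repeat of GAAA after any 2 bases. No marked sites overlap.
Eef1a2, chr2:181157016-181157165, minus strand: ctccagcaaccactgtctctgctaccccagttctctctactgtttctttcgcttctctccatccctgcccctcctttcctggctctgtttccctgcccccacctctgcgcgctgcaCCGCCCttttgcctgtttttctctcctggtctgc
Eef1a1, chr9:78481725-78481874, minus strand: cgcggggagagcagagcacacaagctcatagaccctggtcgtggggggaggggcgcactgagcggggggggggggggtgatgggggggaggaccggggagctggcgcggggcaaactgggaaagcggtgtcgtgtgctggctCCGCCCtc
Eif4a2, chr16:23107318-23107467, plus strand: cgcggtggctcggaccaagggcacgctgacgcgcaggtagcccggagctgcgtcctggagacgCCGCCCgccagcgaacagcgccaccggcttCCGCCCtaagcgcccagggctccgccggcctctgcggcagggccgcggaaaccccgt
Eif4a1, chr11:69672424-69672573, minus strand: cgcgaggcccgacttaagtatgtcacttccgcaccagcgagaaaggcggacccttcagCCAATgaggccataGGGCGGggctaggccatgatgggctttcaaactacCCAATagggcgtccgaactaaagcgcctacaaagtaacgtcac
The stretch of Eef1a2 is 79.3% pyrimidines with 58% G and C, against 33.3% pyrimidines and 72.7% G and C in Eef1a1. That of Eif4a2 holds 76% G and C with 2 GC boxes, against 56.7% in Eif4a1, which holds 1 GC box and 2 CCAAT boxes.

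A TATA-like motif was found around the annotated start of the 3 members with the highest mean FPKM, and an interferon-response-like motif around that of Eif2ak2, the gene with the largest difference. These motifs are shown in windows of 30 bases, with the motif in capitals. Counted from the annotated start, with negative positions before it, the TATA-like motif began at 24 in Eef1a1, 8 in Eif1 and -15 in Eef2. The interferon-response-like motif of Eif2ak2 began at 19.
Eef1a1, chr9:78481682-78481711, minus strand: gggagaacggTATATAAgtgcggcagtcgc
Eif1, chr11:100319946-100319975, plus strand: caggggcggcTATATAAgtgaatacaggcg
Eef2, chr10:81176606-81176635, plus strand: ggcgtcgaccTATAAAAggccgggcgttga
Eif2ak2, chr17:78882535-78882564, minus strand: agtccgccggGAAAACGAAAcagaagagaa
Of the 61 members, 47 had at least 1 promoter in the RefSeq table, giving 62 windows from 250 bases before to 50 after a start. The GC box was in 44 of the 62 windows (71%) and in 35.7% of all 32851 windows of that length. The CCAAT box was in 24.2% of the members' windows and 37.4% of all, the E-box in 58.1% and 72.3%. The TATA-like motif was in 4 of the members' windows, those of Eef1a1, Eef2, Eif1 and Eif3c, which is 6.45%, and in 11.3% of all. The interferon-response-like motif was in those of Eif2ak2, Eif2s1 and Eif3a, 4.84%, and in 3.44% of all. The log2 ratios of these genes, probucol over untreated as defined below, were -0.83, -0.03 and 0.08. A match is a description of the letters and not a binding site.

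Expression is given by the authors in FPKM, a fragment number divided by transcript length and by library size, so levels of different genes can be set side by side. A gene was called measured at a mean of at least 0.5 FPKM over both libraries, and 59 of the 61 members were, as were 12882 genes in all. Differences are log2 ratios of FPKM + 0.5, probucol over untreated, so a positive value means higher with probucol. With 1 library per group there is no replicate check and no test, and every difference below compares these libraries. Judged by the steps between low values, 1 FPKM in a 1 kb transcript equals about 6.69 fragments with probucol and 7.49 without. Where a member has 1 transcript, its fragments are estimated from this, and the exact 95% binomial (Clopper-Pearson) interval of the FPKM ratio is given. It covers counting error only and holds for the deposited scaling. In tissue, fewer cells of a type and less RNA per cell cannot be told apart. The tissue label fits the markers: the 15 cardiomyocyte markers summed to 122035 FPKM with probucol and 90455 FPKM without.

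The initiation and elongation factor genes differed little between the libraries. Of the 59 measured members, 1 was at least 1.5-fold different, Eif2ak2, where 17.5% of all measured genes were and 12.9% of those with at least 10 FPKM. With both libraries scaled to the same total of all FPKM, 4 members were, all lower (Eef1a1, Eif1a, Eif4a1 and Eif2ak2), beside 19.9% of all measured genes. None was 2-fold different, against 6.21% of all measured genes. A log2 ratio within 0.25 of 0 was found for 41 members (69.5%). The share was 50.6% of all measured genes and 53% of those with at least 10 FPKM. The members' median was 0.13, with quartiles at -0.03 and 0.25, beside 0.01 over all measured genes, with quartiles at -0.26 and 0.23, and 0.08 over those of at least 10 FPKM. Above 0 lay 40 members (67.8%), against 50.9% of all measured genes and 59.9% of those of at least 10 FPKM. Since 53 of the members had at least 10 FPKM, the abundant genes are the closer comparison. Summed over the 61 genes, the share of total FPKM was 0.97% with probucol and 1.05% without. That of the 52 genes named Eif1 to Eif6 was 0.551% and 0.552%. The 9 eEF genes, which include Eef1a1, held 0.42% and 0.496%.

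Small differences depend on how the libraries are scaled. When both were scaled to the same total of all FPKM, the median of all measured genes moved by -0.14 and that of the members became -0.018. The members then lay 0.11 above the median of all genes, as against 0.12 with the deposited scaling. Among genes of at least 10 FPKM, with the deposited scaling, the members lay 0.05 above the median. With both libraries scaled to the same total of all FPKM, 26 members lay above 0. The medians given below for eIF3, eIF2B, eEF1 and eIF2 turn negative there (those of eEF1 and eIF2 also when the 10 most abundant genes are left out of the total), and that of eIF4F and its helpers falls to 0.02.

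**Figure D1:**
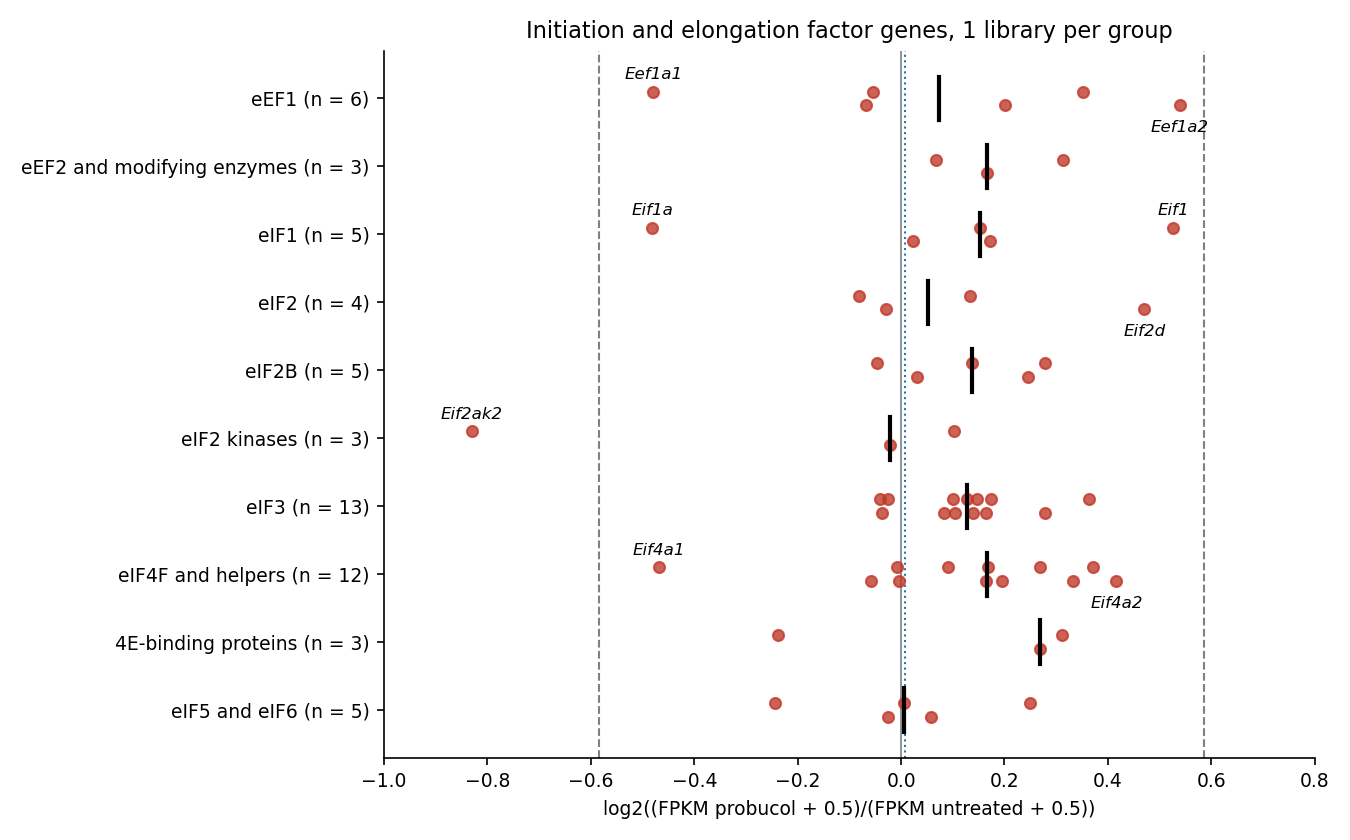
Log2 ratio of FPKM + 0.5, probucol over untreated, for each of the 59 measured members (points), grouped by role; black bars are group medians, dashed lines mark 1.5-fold, and the blue dotted line is the median of all measured genes. With the deposited scaling Eif2ak2 alone lies past 1.5-fold, at -0.83. Eef1a1 and Eif4a1 lie opposite to their paralogs Eef1a2 and Eif4a2. Eif1a, below 0, and Eif1, above it, are not such a pair.

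**Figure D2:**
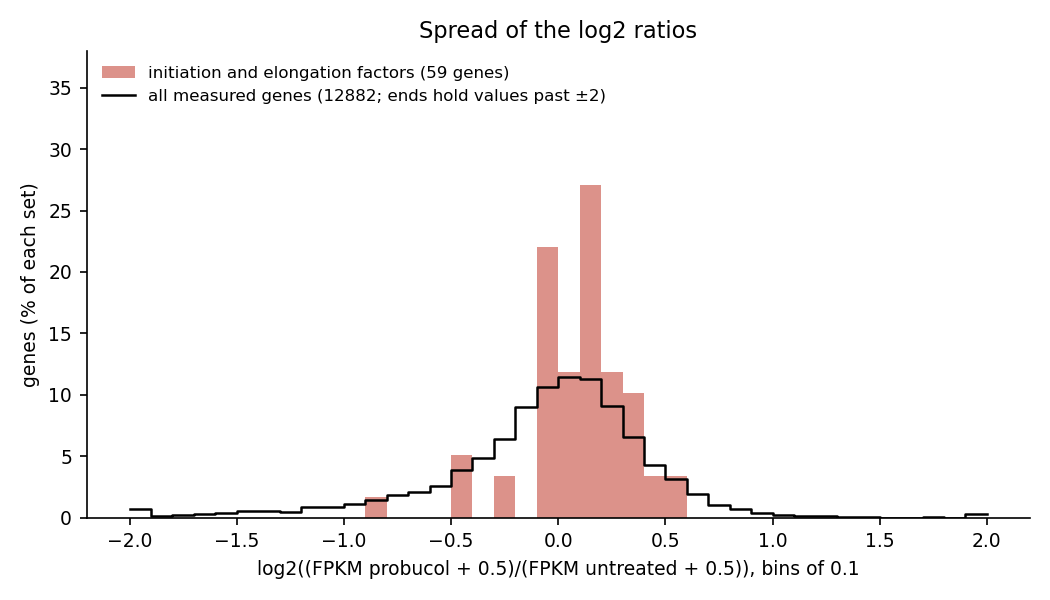
Share of genes in bins of 0.1 of the log2 ratio, probucol over untreated, for 59 initiation and elongation factors (bars) and for all 12882 measured genes (line; the end bins hold values past 2). The bars crowd around 0, with 41 members within 0.25 of it, and have no tail beyond 1.5-fold other than 1 gene.

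The pair of genes for eEF1A, the factor that carries aminoacyl-tRNA to the ribosome, differed in opposite directions. Eef1a2, the muscle and neuron form (chromosome 2, 181141758 to 181157015, GRCm38), had 654 FPKM with probucol and 450 FPKM without. It was 1.45-fold higher with probucol, a log2 ratio of 0.54, from about 8196 and 6315 fragments (interval of the FPKM ratio 1.406 to 1.502). Eef1a1, the widespread form (chromosome 9, 78478453 to 78481724), had 1284 FPKM with probucol and 1790 FPKM without. It was 1.39-fold lower, a log2 ratio of -0.48, from about 13604 and 21239 fragments (0.702 to 0.733). With the deposited scaling both lay just inside the 1.5-fold limit, and Eef1a1 was the more abundant form in either library. Both kept their sign under the scalings tried, but Eef1a1 passed the limit, at -0.63, when libraries were scaled to the same total, where Eef1a2 was at 0.39. Eef1a1 stood at rank 86 among all genes by FPKM with probucol and at rank 54 without, while Eef1a2 stood at rank 201 and rank 258.

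Set against each other within a library, where scaling cancels, Eef1a2 reached 0.509 of the level of Eef1a1 with probucol and 0.251 of it without. The ratio was thus 2.03 times as large in the probucol library. Eef1a2 made up 33.7% of the summed eEF1A transcripts with probucol and 20.1% without. The sum itself was 1938 FPKM with probucol and 2240 FPKM without, a log2 ratio of -0.21. Eef1a1 has several processed pseudogenes in the mouse genome, and how reads shared with them were assigned is not stated in the sources used here, so its level is less certain than that of Eef1a2.

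Markers of several cell types also differed between the libraries. The 15 cardiomyocyte markers were all above 0 (0.21 to 0.63), and their median of 0.45 was close to the value of Eef1a2. Each of the 12 macrophage markers passed the 1.5-fold limit downwards; their median was -1.56 and their summed level 1113 FPKM with probucol and 3668 FPKM without. All 8 proliferation markers were lower by that limit (median -1.57, summed 10.2 and 39.2 FPKM), as were 7 of 9 fibroblast markers (median -0.83, summed 900.0 and 1550 FPKM). Endothelial markers had a median of 0.03 with 1 of 7 past the limit, and smooth muscle and pericyte markers -0.16 with 0 of 6. Of all measured genes 17.5% passed the limit in either direction and 12% downwards. Eef1a2 is also a gene of neurons and skeletal muscle. Of 5 neuronal markers, Snap25 and Syt1 were listed at 0 in both libraries and the list summed to 8.59 FPKM with probucol and 7.22 FPKM without. Nearly all of that sum was Stmn2, a microtubule regulator, with 8.01 against 6.55 FPKM (0.27). Of 5 skeletal muscle markers, Myh2 and Myh4 were listed at 0 in both, and the list summed to 5.99 FPKM with probucol and 3.10 FPKM without. Its 2 measured genes, both troponins of fast muscle, were higher: Tnni2 had 5.21 against 2.63 FPKM (0.87, past 1.5-fold) and Tnnt3 0.758 against 0.475 FPKM (0.37). Of 5 erythroid markers, 3 were measured and all were higher (median 1.05). The part of these cell types in the values of Eef1a1 and Eef1a2 was not tested.

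**Figure D3:**
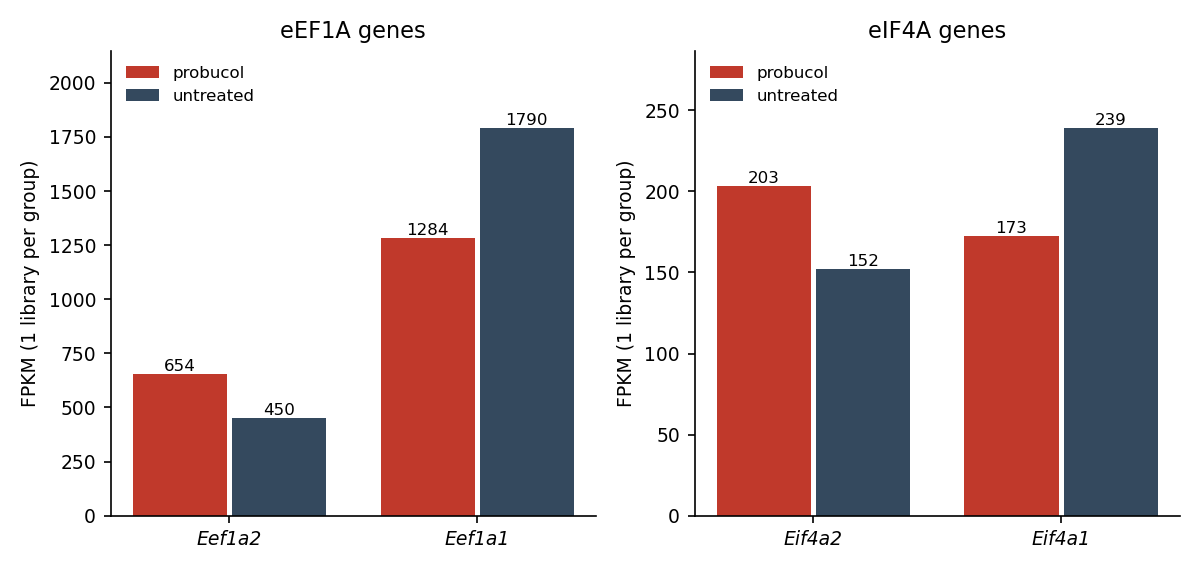
FPKM of the eEF1A genes (left) and of the main eIF4A genes (right), 1 library per bar, probucol beside untreated. In each family the gene that is higher with probucol (Eef1a2 at 654 against 450, Eif4a2 at 203 against 152) stands next to one that is lower.

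**Figure D4:**
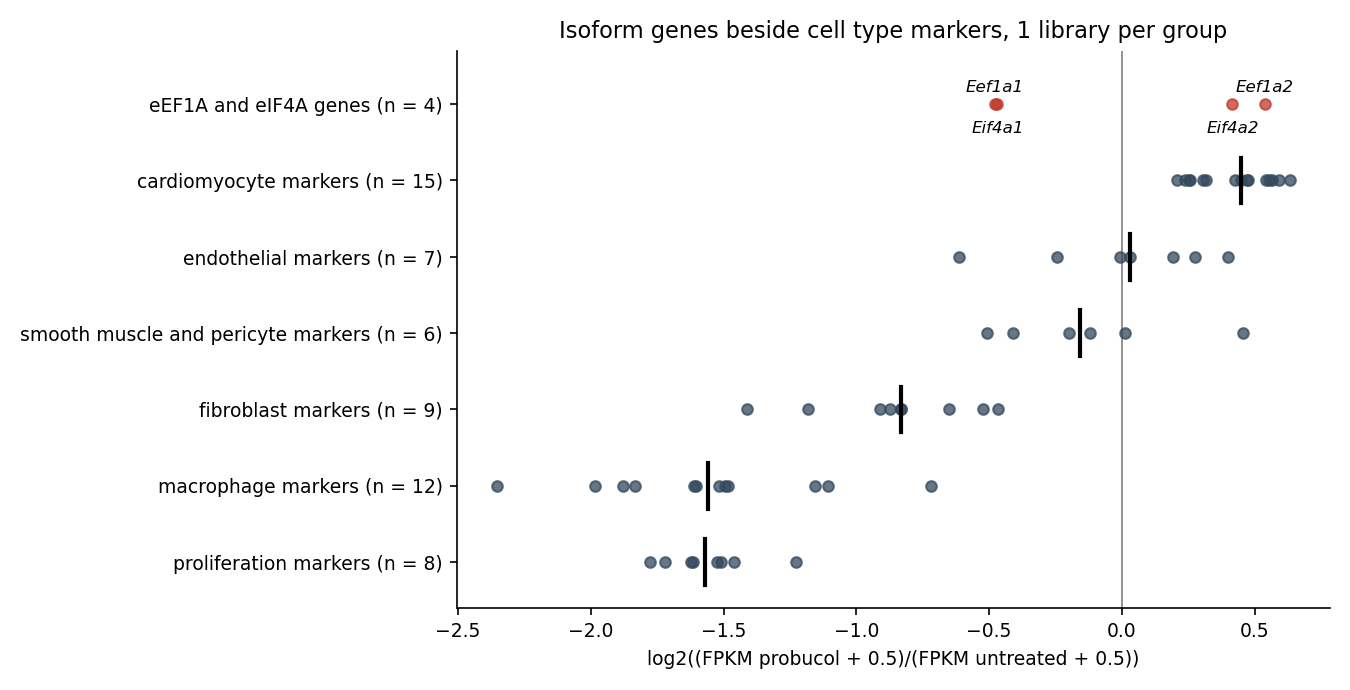
Log2 ratio of FPKM + 0.5, probucol over untreated, for the eEF1A and eIF4A genes and for the measured markers of 6 lists (points are genes, black bars list medians). Eef1a2 and Eif4a2 lie within the range of the cardiomyocyte markers, and Eef1a1 and Eif4a1 lie between the endothelial and the fibroblast medians.

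The other parts of eEF1 form the exchange factor that reloads eEF1A. Eef1d, its delta subunit, had 94.6 FPKM with probucol and 73.9 FPKM without, a log2 ratio of 0.35, the next highest after Eef1a2 in this group. Eef1g, the gamma subunit, had 243 against 252 FPKM and Eef1b2, a catalytic subunit, 129 against 136 FPKM. Their log2 ratios were -0.05 and -0.07, with intervals of the FPKM ratio that include 1 (0.914 to 1.01 and 0.889 to 1.02). Scaled to the same total of all FPKM, these log2 ratios were -0.20 and -0.21. Eef1e1, named with this group but known as a partner of the aminoacyl-tRNA synthetase complex, had 15.6 against 13.5 FPKM. The 6 eEF1 genes had a median of 0.07, with 3 above and 3 below 0, so they did not share a direction.

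Eef2, the translocase (chromosome 10, 81176631 to 81182509), had 698 FPKM with probucol and 621 FPKM without. Its log2 ratio of 0.17 rests on about 13436 and 13401 fragments (interval of the FPKM ratio 1.10 to 1.15), and it becomes 0.02 when libraries are scaled to the same total. Eef2k, the calcium-dependent kinase that phosphorylates and inhibits eEF2, had 8.13 against 6.45 FPKM, a log2 ratio of 0.31. Eef2kmt, which methylates eEF2, had 9.97 against 9.50 FPKM. Enzymes that methylate eEF1A were listed under older symbols and were looked up after the other values were seen. N6amt2 (Eef1akmt1) had 46.4 against 41.2 FPKM, Mettl10 (Eef1akmt2) 8.60 against 11.2 FPKM and Mettl13 (Eef1aknmt) 3.01 against 2.02 FPKM, while Mettl21b (Eef1akmt3) was listed at 0 in both. Among the 8 enzymes that make the hypusine of eIF5A or the diphthamide of eEF2, the median was 0.04 and none passed 1.5-fold. Of all measured genes 17.5% did, and the list is short. Dhps, the first hypusine enzyme, was the furthest at 0.35 (13.0 against 10.1 FPKM).

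The small factors that help the ribosome find the start codon included the highest initiation gene. Eif1, which keeps the scanning ribosome open until the start codon is met (chromosome 11, 100319949 to 100322099), had 764 FPKM with probucol and 530 FPKM without. It was 1.44-fold higher, a log2 ratio of 0.53, from about 5684 and 4417 fragments (interval of the FPKM ratio 1.385 to 1.499), just inside the limit. Its paralog Eif1b had 61.1 against 54.2 FPKM and a log2 ratio of 0.17, and made up 7.40% of the summed pair with probucol and 9.27% without. For eIF1A, Eif1ax on the X chromosome had 81.8 against 73.5 FPKM, a log2 ratio of 0.15. Eif1a, on chromosome 18, had 14.8 against 20.8 FPKM and -0.48, which becomes -0.63 with libraries scaled to the same total. These near-identical copies can share reads, so the difference between them is uncertain, and their sum was 96.5 FPKM with probucol and 94.3 FPKM without, a log2 ratio of 0.03. Eif1ad, named for its eIF1A-like domain, had 12.22 against 12.02 FPKM.

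The kept genes for subunits of eIF2, which brings the initiator tRNA, were near 0. Eif2s1, the alpha subunit whose phosphorylation restrains initiation, had 23.4 against 23.9 FPKM, and Eif2s2, the beta subunit, 68.7 against 72.7 FPKM. Their log2 ratios were -0.03 and -0.08, with intervals of the FPKM ratio of 0.867 to 1.11 and 0.871 to 1.03. Eif2a, a separate factor despite its name, had 32.5 against 29.6 FPKM. Eif2d, which can deliver tRNA to the ribosome without GTP and also acts in recycling, had 23.5 against 16.8 FPKM. Its log2 ratio of 0.47 was the highest of the 4 genes grouped here by name, whose median was 0.05. Eif2d overlaps Rassf5 on the opposite strand, as Eif4a2 does Rfc4. The kit keeps strand, but whether the authors' quantification used it is not stated in the sources used here, so reads of such partners may be mixed.

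The 5 subunits of eIF2B, the exchange factor that reloads eIF2 and that phosphorylated eIF2 blocks, were at similar levels, from 10.8 to 31.8 FPKM with probucol and from 11.2 to 26.7 FPKM without. The subunits of the catalytic part, Eif2b5 (31.8 against 26.7 FPKM, log2 ratio 0.25) and Eif2b3 (10.8 against 11.2, -0.05), were the highest and the lowest. Eif2b4 had the largest log2 ratio, 0.28 (28.8 against 23.7 FPKM). Eif2b1 and Eif2b2 had 0.14 and 0.03, and the group's median was 0.14, with 4 of 5 above 0.

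The largest difference among the 59 genes was in a kinase of eIF2. Eif2ak2, which encodes PKR, the kinase that double-stranded RNA activates and interferon induces (chromosome 17, 78850504 to 78882572), had 6.13 FPKM with probucol and 11.3 FPKM without. It was 1.78-fold lower, a log2 ratio of -0.83, from about 168 and 347 fragments (interval of the FPKM ratio 0.448 to 0.654), and it was the 1 member past 1.5-fold. Past 1.5-fold downwards lay 12% of all measured genes, and 5.52% lay past it upwards. The other kinases did not share this: Eif2ak1, the heme-regulated kinase, had 18.6 against 17.3 FPKM (0.10), and Eif2ak4, the kinase that senses amino acid shortage, had 2.16 against 2.19 FPKM (-0.02).

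Other interferon-induced genes, listed after the value of Eif2ak2 was seen, were mostly lower too. The median of 10 such genes was -0.75; 7 of them passed the 1.5-fold limit downwards and 0 upwards. Ifit1, an antiviral RNA-binding protein, had 4.12 against 9.75 FPKM and Isg15, the ubiquitin-like modifier, 12.5 against 22.5 FPKM. Rsad2 went the other way, with 7.64 against 5.69 FPKM. The macrophage markers given beside eEF1A were lower as well, with a median of -1.56 and 12 of 12 past the limit, and their part in the values of Eif2ak2 and of these genes was not tested. The integrated stress response, the gene programme that phosphorylation of eIF2 sets off, had a median of -0.11 over 10 genes, with 0 past 1.5-fold in either direction. Of all measured genes 17.5% were past it, and a list of 10 is short. Atf4, its main transcription factor, had 82.3 against 92.0 FPKM, and Ddit3, which encodes CHOP, 32.2 against 31.1 FPKM. Sesn2 (-0.37), Asns (-0.32), the asparagine synthetase, and Trib3 (0.27) were the furthest from 0. Transcript levels do not show how much eIF2 was phosphorylated.

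eIF3, the large scaffold that holds initiation factors on the small subunit, was even across its subunits. Its 13 measured subunit genes lay between -0.04 and 0.36, with a median of 0.13, and 11 of them (84.6%) were within 0.25 of 0. The share was 50.6% of all measured genes and 53% of those of at least 10 FPKM. The summed level was 1267 FPKM with probucol and 1183 FPKM without. Levels of the subunits spanned 5.51-fold with probucol and 5.77-fold without. Eif3h was the most abundant, with 220.0 against 205 FPKM, then Eif3m with 146 against 150 FPKM and Eif3k with 142 against 128 FPKM. Eif3d, which can itself bind the cap, was the lowest, with 39.9 against 35.6 FPKM. The large subunits Eif3a (66.0 against 62.3 FPKM), Eif3b (45.7 against 40.4) and Eif3c (70.9 against 64.0), the core of the complex, were less abundant per length than several of the smaller ones, in both libraries.

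Eif3f had the largest difference in the complex, with 114 FPKM with probucol and 88.4 FPKM without. Its log2 ratio of 0.36 rests on about 1756 and 1526 fragments, with an interval of the FPKM ratio of 1.203 to 1.381. Below 0 lay Eif3m (-0.04), Eif3i (-0.04) and Eif3e (-0.03), each with an interval that includes 1 with the deposited scaling. Scaled to the same total of all FPKM, these 3 genes were at -0.19, -0.18 and -0.17. Eif3g, Eif3l, Eif3d, Eif3b, Eif3a, Eif3c, Eif3h and Eif3k lay between 0.08 and 0.17. The j subunit has near-identical copies in the mouse genome: nearly all of it was listed under Eif3j2, with 59.2 against 48.7 FPKM, and Eif3j1 was under the filter, with 0.272 against 0.349 FPKM or about 9 and 14 fragments. Their sum had a log2 ratio of 0.28, and which copy the reads came from cannot be told from these values.

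**Figure D5:**
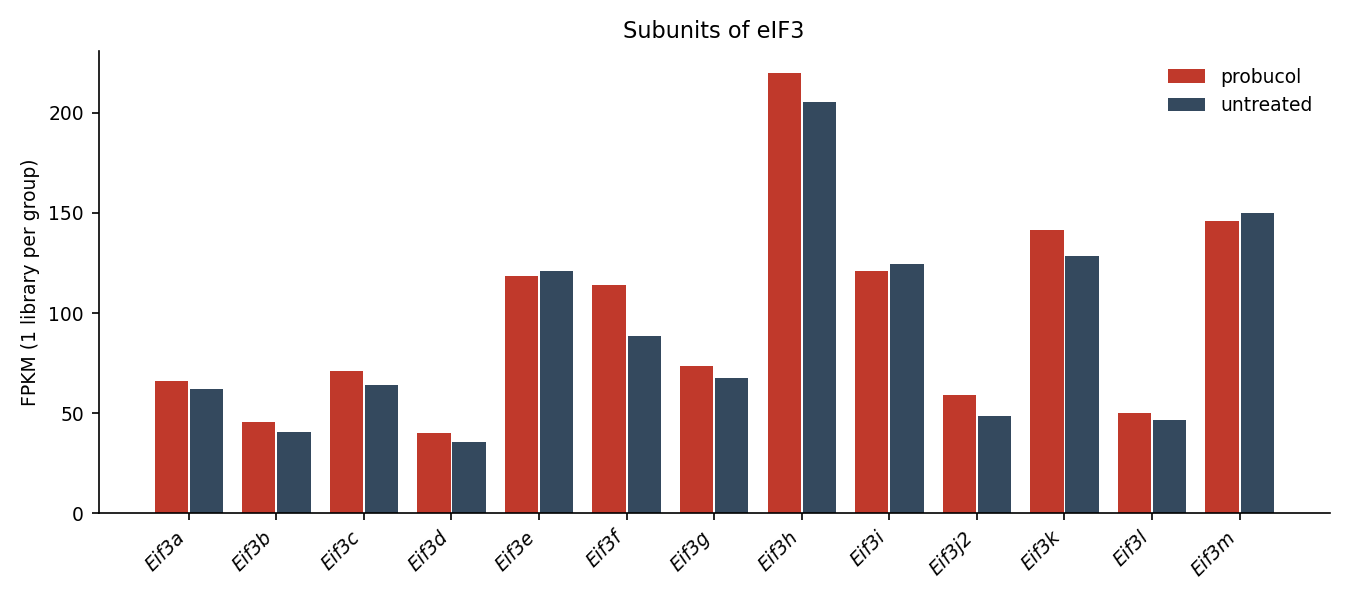
FPKM of the 13 measured eIF3 subunit genes, 1 library per bar, probucol left of untreated. The bars of a subunit are close in height, from Eif3d at 39.9 and 35.6 to Eif3h at 220.0 and 205, and Eif3f (114 and 88.4) shows the widest gap.

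The cap-binding group held another pair of opposite paralogs. Eif4a1, the RNA helicase that is the main form in growing cells (chromosome 11, 69666936 to 69672423), had 173 FPKM with probucol and 239 FPKM without, 1.38-fold lower (log2 ratio -0.47, or -0.615 and past 1.5-fold when libraries are scaled to the same total). Eif4a2, the closely related helicase (chromosome 16, 23107468 to 23114132), had 203 against 152 FPKM, 1.33-fold higher (0.42). Eif4a2 was therefore 1.18 times the level of Eif4a1 with probucol and 0.636 times without, so the order of the pair differed between the libraries. The sum was 376 against 391 FPKM, a log2 ratio of -0.06. The part of the cell types whose markers are described beside eEF1A was not tested for this pair either. Both genes host small nucleolar RNAs in introns, and both have more than 1 annotated transcript, so no fragment numbers are given. Eif4a3, which works in the exon junction complex instead, had 34.4 against 35.9 FPKM (-0.06).

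Among scaffolds, Eif4g1, the main one, had 107 against 84.5 FPKM, a log2 ratio of 0.33. Eif4g2, a related protein that lacks the eIF4E-binding part, was more abundant, with 200.1 against 178 FPKM (0.17), and Eif4g3 was low, with 10.5 against 9.86 FPKM (0.09). Of the cap-binding proteins, Eif4e had 72.5 against 64.6 FPKM (0.16). Eif4e3 had 32.9 against 27.2 FPKM (0.27) and Eif4e2, which represses translation, 22.7 against 22.8 FPKM (-0.01). Eif4e1b, known as the form of oocytes, was listed at 0 in both libraries. The helpers of the helicase, Eif4b and Eif4h, had 88.5 against 77.2 FPKM (0.19) and 78.2 against 78.4 FPKM (0.00). Eif4enif1, the transporter that takes eIF4E to the nucleus and to processing bodies, had 17.1 against 13.1 FPKM, a log2 ratio of 0.37. The 12 measured genes had a median of 0.17, with 8 above 0 and Eif4a1 as the 1 member under -0.1.

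The 4E-binding proteins, which hold eIF4E away from eIF4G until mTORC1 phosphorylates them, differed among themselves. Eif4ebp1 (chromosome 8, 27260327 to 27275656) had 89.1 FPKM with probucol and 105 FPKM without, a log2 ratio of -0.24 from about 1065 and 1408 fragments (interval of the FPKM ratio 0.782 to 0.918). Eif4ebp2 had 25.7 against 21.3 FPKM (0.27), with an interval of 0.992 to 1.48. Eif4ebp3 had 3.64 against 2.84 FPKM, but this rests on about 13 and 11 fragments, and no difference was detectable at this depth (0.547 to 3.26). Eif4ebp1 was the main form in both libraries, and Eif4ebp2 made up 22.4% of their sum with probucol and 16.8% without.

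In the last steps of initiation differences were small. Eif5, which makes eIF2 hydrolyse its GTP, had 67.8 against 67.5 FPKM, and Eif5b, the GTPase that joins the large subunit, 20.0 against 16.7 FPKM (0.25). Eif5a, the hypusine-bearing factor that helps the ribosome past difficult stretches, was abundant and even, with 360.3 against 367 FPKM (-0.03). Its relative Eif5a2 was near the filter, with 0.749 against 0.980 FPKM or about 24 and 35 fragments, and an interval of 0.437 to 1.33 that leaves no difference detectable. Eif6, which keeps the large subunit from joining early, had 24.8 against 23.8 FPKM. All 5 lay within 0.25 of 0, where 50.6% of all measured genes did.

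Other genes of translation were described by lists. Of 7 measured genes of termination and recycling none passed 1.5-fold, where 17.5% of all measured genes did, and the median was 0.10. Hbs1l, a rescue factor for stalled ribosomes, was the furthest at 0.41 (30.8 against 23.0 FPKM). Among 8 poly(A)-binding proteins and partners the median was 0.23 with 0 past the limit. In lists as short as these, 0 past the limit says little. The poly(A)-binding proteins themselves split: Pabpc4 had 106 against 76.1 FPKM (0.47) and Pabpc1, the general form, 67.8 against 85.8 FPKM (-0.34). Of 15 genes of mTORC1 and MNK signalling, which acts on the 4E-binding proteins and on eIF4E, 2 were at least 1.5-fold higher and 1 lower, with a median of 0.32. These 3 are 20% of the list, near the 17.5% of all measured genes. Sesn1, a stress-induced protein that restrains mTORC1, had 99.0 against 58.1 FPKM (0.76). Rps6kb2, an S6 kinase, had 7.10 against 4.49 FPKM (0.61), close to the limit of 0.58, so its call depends on the scaling. Mknk1, which phosphorylates eIF4E, had 8.32 against 13.0 FPKM (-0.61), while Mknk2 had 93.9 against 69.7 FPKM (0.43).

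The mitochondrial translation factors, which serve the separate ribosomes of that organelle, had a median of 0.34 over 10 genes, with 9 above 0. Above 0 lay 50.9% of all measured genes and 59.9% of those of at least 10 FPKM. Of the 10 mitochondrial factors, 1 gene was at least 1.5-fold higher, where 5.52% of all measured genes were. That gene was Tufm, the mitochondrial counterpart of eEF1A, with 162 against 105 FPKM (0.63). Tsfm, its exchange factor, had 36.9 against 24.7 FPKM (0.57), and Gfm1, the counterpart of eEF2, 89.9 against 67.2 FPKM (0.42). The cytosolic factors had a median of 0.13 and the cardiomyocyte markers one of 0.45. All these values are with the deposited scaling. Scaled to the same total of all FPKM, the median of all measured genes moved by -0.14. Tufm was close to the limit of 0.58, so its call depends on the scaling. The part of cell types in the mitochondrial values was not tested. Whether the difference between these lists exceeds the spread between hearts cannot be tested with 1 library per group.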

How the data were processed

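Expression in 2 mouse heart libraries, 1 per treatment label, was deposited by the authors as FPKM per gene symbol, per the file headers. TopHat2 2.1.1, Bowtie2, Cuffdiff 2.2.1 and mm10 are named in the submitters' processing notes. Their order, the gene models and the scaling across libraries are not stated in the sources used here. The FPKM sum to 747193 with probucol and 675286 without.

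Log2 ratios, medians and counts were computed with Python 3.11.15, pandas 2.3.3 and NumPy 2.4.6, and intervals with SciPy 1.17.1. The calculation of the log2 ratios was tested on simulated data with large planted differences. That test covered neither the fragment estimates and intervals nor the spread between animals. Fragments were estimated for 41 members with 1 RefSeq transcript, after subtracting 210 bases from its GENCODE length. Of low values of single-transcript genes, 64.2% with probucol and 65.8% without came out whole within 0.03. Coordinates and promoters are RefSeq's, GRCm38.p6, the build of mm10.

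The members and lists were chosen with earlier results of these data known. Named were Eef1a1 and Eef1a2, every member past 1.5-fold, and in each role group the most abundant and most different members. Further members were named to account for all, and a few genes outside the members after their values were seen.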

Additional observations from a re-analysis of the deposited data

How the results depend on the processing

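No paired analysis was possible because each group has 1 library. The count of 1 member past 1.5-fold, Eif2ak2, was the same with pseudocounts of 0.1 and 1, centring, no filter, a filter of 1 FPKM, near-identical copies summed, and the isoforms of eEF1A and eIF4A summed, an alternative chosen after seeing the data. The members' median lay between 0.10 and 0.13 under these. Scaling without the 10 most abundant genes kept the count of 1, but the median fell to 0.036 and 6 members changed sign. Scaling to the same total of all FPKM gave 4 members, all lower (Eef1a1, Eif1a and Eif4a1 joined Eif2ak2), and a median of -0.018; there 14 of 59 members changed sign. With a filter of 10 FPKM the count was 0, since Eif2ak2 is below it, and the members lay 0.05 above the median of all genes that passed, as against 0.12 with the filter of 0.5. The ratio of Eef1a2 to Eef1a1 was 0.5092 with probucol and 0.2513 without, and with 0.5 added to both values it was 0.5094 and 0.2515. Depth limits Eif3j1, Eif4ebp3 and Eif5a2, which rest on few fragments.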
